A study of Mus musculus with 2 samples.

Results

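The genes described here encode the receptors for the inhibitory transmitters GABA and glycine, an enzyme of GABA synthesis, and proteins that anchor or carry these receptors. They were chosen by symbol in the array's probe annotation: symbols that begin with Gabr, Gabbr, Gabarap, Glra or Glrb, the synthesis genes Gad1 and Gad2, and Gphn. This gave 26 genes of 16446 named on the array, each with 1 probe. Of these, 19 were above background in every channel and are called measured, as were 13633 genes in all. Gad1 was not analysed here.

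Hippocampal RNA came from wild-type mice, from AtrxdE2 mice (labelled AtrxΔE2, carrying an altered allele of the X-linked chromatin remodeller gene Atrx and used as a model of ATR-X syndrome) and from AtrxdE2 mice treated with the porphyrin TMPyP4, a ligand of G-quadruplex DNA. TMPyP4 was injected intraperitoneally at 30 mg/kg, 2 times a week from postnatal day 30 to day 90. Each RNA was a pool of 5 mice, and each mutant pool (Cy3) was hybridised once against wild type (Cy5), giving 2 arrays with no dye swap. In each ratio over wild type, a dye effect of the probe thus cannot be told apart from an effect of the mutant pool. This holds also where both arrays gave a ratio of the same sign. The labels leave unsaid whether both arrays used 1 wild-type pool, whether untreated mice received vehicle, and which strain and sex the mice were. With 1 array per group there is no replicate error, and no p-value was computed for any value. Their precision is limited by the number of arrays.

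GABA-A receptors are chloride channels built from several subunits, usually alpha and beta subunits with a gamma or a delta subunit. Receptors with gamma subunits sit largely at synapses, whereas those with delta or with the alpha subunit encoded by Gabra5 lie mostly outside synapses and carry tonic inhibition in the hippocampus. GABA-B receptors are G-protein-coupled dimers, and glycine receptors are chloride channels held at synapses by their beta subunit, which binds the scaffold gephyrin.

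Levels are given as log2 signals after normalization, which put the channels of both arrays on one scale, and can be compared between channels of the same probe only. A log2 ratio is the mutant pool over wild type on the same array, and the third comparison is the difference of both ratios, AtrxdE2+TMPyP4 minus AtrxdE2. Since both ratios enter it, this difference is no independent check on either. As a yardstick for a single gene, the spread (SD) among 500 genes of most similar signal is given. It includes whatever biology those genes carry.

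Atrx, a dim probe, had a log2 ratio of -0.68 in AtrxdE2 and of -0.36 in AtrxdE2+TMPyP4. In the authors' deposited table these were -1.96 and -0.78. Between the arrays, the SD over all measured genes was 0.29 log2 units for the wild-type channels and 0.38 for the mutant channels. All 16 listed markers of hippocampal pyramidal and granule neurons with a named probe were above background in every channel, as were all 18 of interneurons. The 16 had a median log2 ratio of 0.069 in AtrxdE2, with 10 above 0, and of -0.023 in AtrxdE2+TMPyP4, with 7 above 0. In bulk RNA, fewer cells of a type and less RNA per cell cannot be told apart. The summed normalized signal of the 18 interneuron markers was 26246 in wild type and 26074 in AtrxdE2 on the first array. On the second it was 24426 in wild type and 24811 in AtrxdE2+TMPyP4. Cck and Sst were the brightest and weigh most in this sum, with log2 signals of 13.62 and 12.76 in wild type on the first array. In both comparisons 8 of these 18 were above 0. In AtrxdE2+TMPyP4 over wild type Pvalb, at 0.87, and Npy, at 0.51, were beyond 2 SD of genes of like signal, and none was beyond it on the lower side. Striatal markers were lower in AtrxdE2+TMPyP4 than in wild type at 9 of 11 genes, with a median log2 ratio of -0.45. In AtrxdE2 they were lower at 7 of 11, with a median of -0.071. Penk1 (-0.96) and Ppp1r1b (-0.90) were beyond 2 SD on the lower side there, and Foxp1 (0.25) on the higher. The summed signal of the striatal markers was 8883 in wild type, 5814 in AtrxdE2, 5875 in wild type on the second array and 4151 in AtrxdE2+TMPyP4. Ppp1r1b and Penk1 were the brightest of these markers and weigh most in the sum, with log2 signals of 12.12 and 10.92 in wild type on the first array. Oligodendrocyte markers were below wild type at all 11 genes in AtrxdE2, with a median of -0.50, and at 10 of 11 in AtrxdE2+TMPyP4, with a median of -0.30. Their summed signal was 16561 in wild type and 10032 in AtrxdE2, then 19334 in wild type and 12830 in AtrxdE2+TMPyP4. Markers of meninges and fibroblasts were above wild type at 13 of 14 genes in each pool, with medians of 0.39 and 0.67. Choroid plexus markers had a median of 0.020 in AtrxdE2 and of 1.44 in AtrxdE2+TMPyP4. Their sum over 9 measured genes was 743, 987 and 1072 in the first 3 channels and 40578 in AtrxdE2+TMPyP4, nearly all of it from Ttr, whose log2 ratio there was 6.59, while Ace was level with wild type. Aqp1, Cldn2, F5 and Steap1 were not above background in every channel. Markers of thalamus and habenula (10 measured) had medians of 0.038 in AtrxdE2 and 0.087 in AtrxdE2+TMPyP4. In AtrxdE2 none was beyond 2 SD. In AtrxdE2+TMPyP4 3 were beyond 2 SD on the higher side and 2 on the lower, from Rora at 0.55 to Prkcd at -0.79. The part of these other cell types in the values below was not tested.

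Under the main setting the medians of the group lay close to those of all measured genes. The 19 measured genes had a median log2 ratio of 0.0059 in AtrxdE2 over wild type (SD 0.27 over genes) and of -0.030 in AtrxdE2+TMPyP4 over wild type (SD 0.25). The median difference between both was -0.0047 (SD 0.34). Over all measured genes these medians were -0.0029, 0.0095 and 0.015, with SDs of 0.19, 0.20 and 0.26. The median absolute value was 0.106, 0.210 and 0.185 for the members and 0.106, 0.098 and 0.136 for all measured genes. In AtrxdE2 over wild type 10 of the 19 were above 0, and in each of the other comparisons 9 were. Of all measured genes 49.3%, 52.8% and 52.7% were above 0. With median centring the members' medians over wild type were higher, at 0.17 and 0.39, against 0.066 and 0.18 for all measured genes. The lowest members in AtrxdE2 were Gabra3, Gabra2 and Gabrb2.

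By a rule of 2-fold, none of the 19 was higher or lower in either mutant pool over wild type. In AtrxdE2 over wild type 0.022% of all measured genes were at least 2-fold higher and 0.00734% lower, and in AtrxdE2+TMPyP4 over wild type 0.161% and 0.0293%. Gabra3 was the single member past 2-fold in the difference, where 0.213% of all measured genes were higher in AtrxdE2+TMPyP4 and 0.103% lower. By a wider rule, beyond 2 SD of the genes nearest in signal, 3 of 19 members were lower in AtrxdE2 (Gabra2, Gabra3 and Gabrb2) and none higher, against 2.6% and 2.31% of all measured genes. In AtrxdE2+TMPyP4 over wild type no member passed this rule, where 2.62% of all genes were higher and 1.6% lower. In the difference Gabra3 and Gabrb2 were higher and none lower, against 2.74% and 1.83%.

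**Figure D1:**
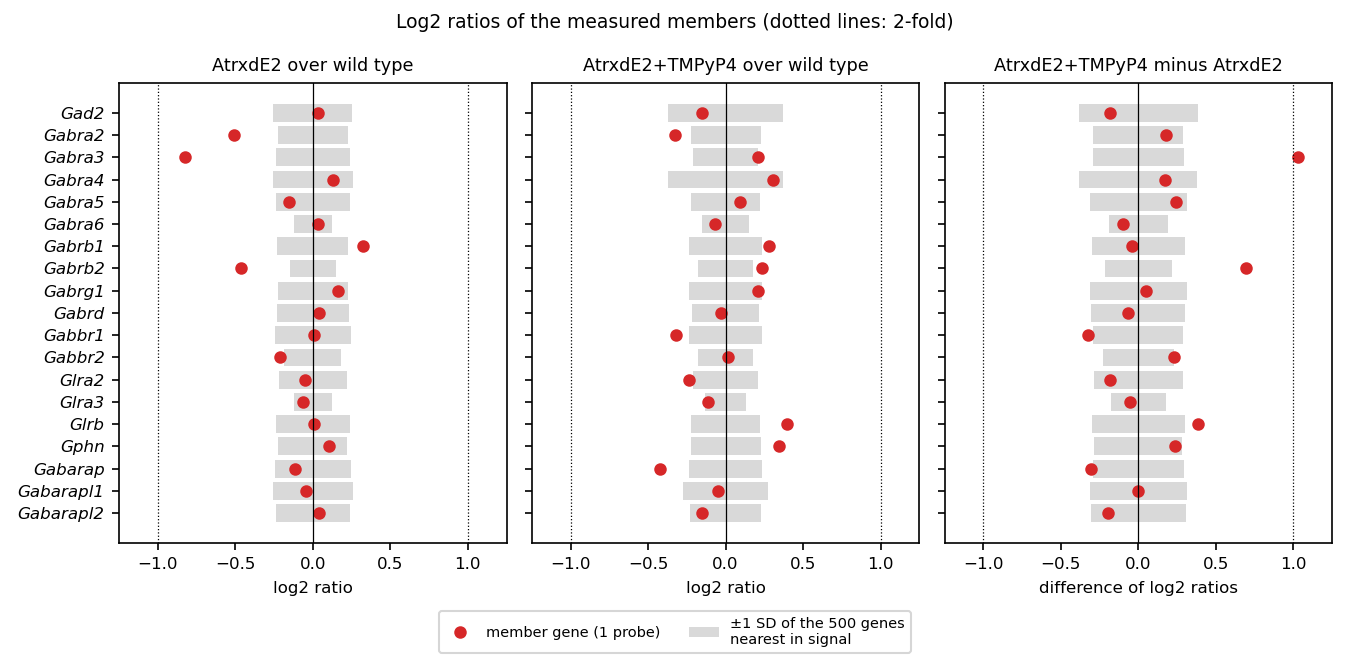
Log2 ratios of the 19 measured genes (points, 1 probe each) in AtrxdE2 over wild type, AtrxdE2+TMPyP4 over wild type, and the difference of both. Grey bars span 1 SD to each side of 0 for the 500 genes nearest in signal, and dotted lines mark 2-fold. For Gad2 and Gabra4 those genes include Ttr, which widens their bars in the middle and right panels. Gabra3 lies farthest out, at -0.82 in the left panel and 1.03 in the right panel.

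GABA synthesis was represented by Gad2, which encodes the glutamate decarboxylase that serves transmitter release at inhibitory terminals. Its normalized log2 signal was 9.51 in wild type and 9.54 in AtrxdE2 on the first array, and 9.89 in wild type and 9.74 in AtrxdE2+TMPyP4 on the second. The wild-type channels thus differed by 0.38, more than either mutant pool differed from its own wild type. The log2 ratio was 0.035 for AtrxdE2 (SD 0.26 among genes nearest in signal) and -0.15 for AtrxdE2+TMPyP4 (SD 0.37), the latter turning to 0.39 with median centring, where the genes nearest in signal had a median of 0.54. Their difference was -0.18 (SD 0.38), within 1 SD of the genes of like signal. It ranged, however, from -0.60 with the local background to 0.094 with median centring and 0.18 when the Cy3 channels were compared directly. The SDs of 0.37 and 0.38 include Ttr, a gene of like mean signal with a ratio of 6.59, and are wider for it. Gabra2 and Gabrb1 had an SD of 0.23 in AtrxdE2+TMPyP4 over wild type. Slc32a1, the vesicular transporter that loads GABA into vesicles, was at -0.16 and -0.37.

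Among the GABA-A alpha subunits all 5 on the array were measured. Their median log2 ratio was -0.16 in AtrxdE2, 0.090 in AtrxdE2+TMPyP4 and 0.18 in the difference, and the spread among them was wide, from -0.82 for Gabra3 to 0.13 for Gabra4 in AtrxdE2.

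Gabra3, an X-linked gene for an alpha subunit of synaptic, benzodiazepine-sensitive receptors, was the member that stood out. The normalized log2 signal was 8.85 in wild type and 8.02 in AtrxdE2 on the first array, and 8.71 in wild type and 8.92 in AtrxdE2+TMPyP4 on the second. AtrxdE2 was thus the low channel, and the other 3 lay within 0.21 log2 units of each other. The wild-type channels differed by -0.13 between arrays and the mutant channels by 0.90. The signal above the blank spots was 318.2, 249.3, 246.8 and 653.6 in these channels, at least 75.6 times the SD of the blanks, so the probe was well above background throughout. The log2 ratio was -0.82 in AtrxdE2 (SD 0.24; 0.565 of the wild-type level; -1.0 in the authors' deposited table), which ranked 13 from the bottom of 13633 measured genes. In AtrxdE2+TMPyP4 it was 0.21 (SD 0.21; 0.23 in the authors' deposited table). The difference of 1.03 (SD 0.30) was a ratio of 2.05 and ranked 28 from the top. It fell short of 2-fold with the spots' local background (0.68) and with the Cy3 channels compared directly (0.86), and it kept its sign under each way of processing tried.

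Gabrb2 encodes a beta subunit, the most abundant partner of alpha subunits in adult brain. It had the same order of channels at a much lower signal: 6.70 in wild type and 6.24 in AtrxdE2, then 6.53 in wild type and 6.76 in AtrxdE2+TMPyP4. Above the blank spots this was 39.0, 24.1, 22.6 and 72.4, and AtrxdE2, the channel nearest to background, was 7.32 times the SD of its blanks. The log2 ratio was -0.46 in AtrxdE2 (SD 0.15) and 0.23 in AtrxdE2+TMPyP4 (SD 0.18), with a difference of 0.70 (SD 0.22) that ranked 153 from the top. The size of these values rested on how dim spots were treated. In the authors' deposited table, which adds no offset, they were -1.35 and 0.51, and the difference was 1.86. With local background the difference was 0.54 and with the Cy3 channels compared directly 0.49, so that the sign held throughout and the 2-fold mark did not.

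Gabra2, for an alpha subunit of synaptic receptors on pyramidal cells that is enriched at the axon initial segment, was low in both mutant pools. Its log2 signal was 9.57 in wild type and 9.06 in AtrxdE2 on the first array, and 9.31 in wild type and 8.98 in AtrxdE2+TMPyP4 on the second. Both mutant channels lay below both wild-type channels. The log2 ratios were -0.51 (SD 0.23; rank 154 from the bottom) and -0.33 (SD 0.23; rank 410 from the bottom), with a difference of 0.18 (SD 0.29; -0.086 with the Cy3 channels compared directly and 1.83 with the local background). In AtrxdE2 the sign held under every setting tried, between -0.59 and -0.25. In AtrxdE2+TMPyP4 it did not: median centring gave 0.15, where genes of like signal had a median of 0.50, and the local background gave 1.23. On that array, before correction, the Gabra2 spot was 0.96 times its own local background in the wild-type channel.

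In AtrxdE2 the other alpha subunits were closer to wild type. Gabra4, whose product pairs with delta in dentate granule cells, had 9.30 and 9.43 on array 1, then 9.86 and 10.16 on array 2. Both channels of the second array were the higher ones, by 0.56 in wild type and 0.73 in the mutant pools, and the ratios over wild type were 0.13 and 0.31, the second of which turned below 0 with the local background, as did that of Gabra5. Gabra5, a subunit characteristic of the hippocampus, had ratios of -0.16 and 0.090 and a difference of 0.25 (SD 0.31). Gabra6, known mainly from cerebellar granule cells, was dim, with signals above blank between 18.9 and 47.6, and had ratios of 0.031 and -0.070 (SD 0.12 and 0.15).

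Gabrb1, the other beta subunit measured, was the highest member in AtrxdE2. Its log2 signals were 9.80 in wild type and 10.12 in AtrxdE2, then 10.20 in wild type and 10.48 in AtrxdE2+TMPyP4. Each mutant pool was above its own wild type, by 0.32 (SD 0.23) and 0.28 (SD 0.23), and the difference was -0.04, or 0.26 with median centring and 0.35 with the Cy3 channels compared directly. The wild-type channels themselves differed by 0.40. With the local background the ratio in AtrxdE2 was -0.58. Except with the local background, where both were below it, Gabrb1 and Gabrb2 lay on opposite sides of wild type in AtrxdE2. They were on the same side, at 0.28 and 0.23, in AtrxdE2+TMPyP4.

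Gabrg1, for a gamma subunit, had ratios of 0.16 and 0.21 (SD 0.22 and 0.23), and Gabrd, for the delta subunit of extrasynaptic receptors, 0.037 and -0.030 (SD 0.23 and 0.22). Both were within 1 SD of genes of like signal in each comparison. The ratio of Gabrd in AtrxdE2+TMPyP4 was 0.44 with median centring, where genes of like signal had 0.48. Gabre and Gabrq, for the epsilon and theta subunits, were not above background in any channel. Gabrp, for the pi subunit, was above background in AtrxdE2 alone. Its ratio to wild type there was 1.07-fold, a point ratio and no lower limit. The rho subunit genes Gabrr1 and Gabrr2, best known from retina, were above background in 3 of the 4 channels and not in AtrxdE2+TMPyP4. For Gabrr1 the bound was at least 1.04-fold higher in wild type, and for Gabrr2 no bound above 1 could be given.

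**Figure D2:**
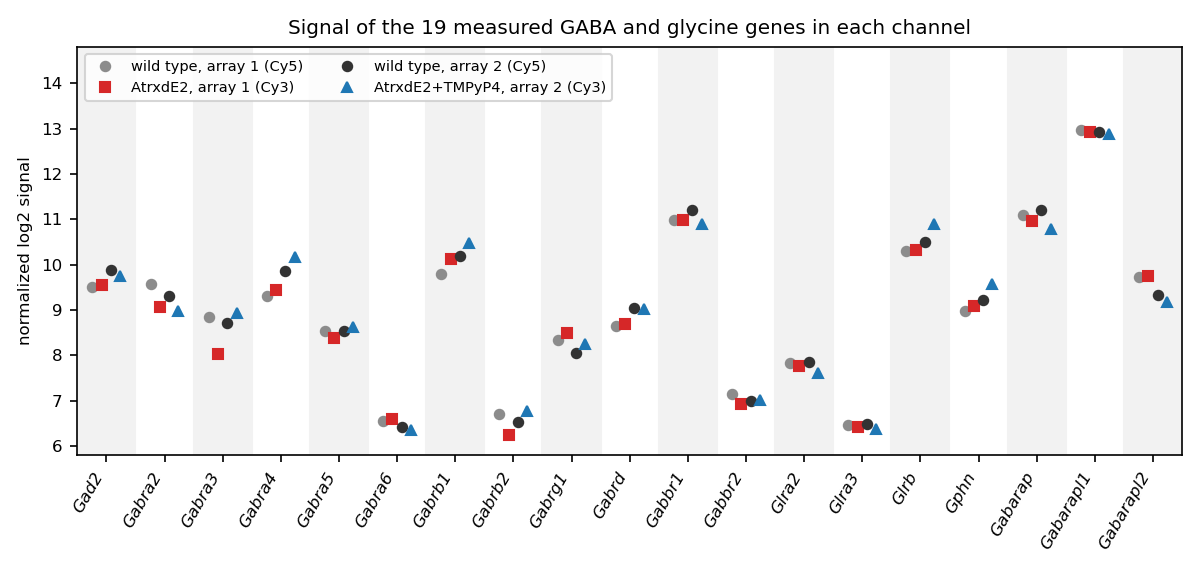
Normalized log2 signal of the 19 measured genes in the 4 channels: wild type (circles, Cy5) on both arrays, AtrxdE2 (squares, Cy3) and AtrxdE2+TMPyP4 (triangles, Cy3). For Gabra3 the AtrxdE2 square, at 8.02, lies apart from the other channels, while for Gabra4 both channels of the second array are the higher ones. Levels of different genes cannot be compared.

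Some members lie next to each other in the genome. Gabrg1, Gabra2, Gabra4 and Gabrb1 lie together on chromosome 5 in the RefSeq annotation of GRCm38.p6, with log2 ratios in AtrxdE2 of 0.16, -0.51, 0.13 and 0.32 and in AtrxdE2+TMPyP4 of 0.21, -0.33, 0.31 and 0.28. Gabra2 was the one of these 4 below wild type. Gabra6 and Gabrb2 lie together on chromosome 11, with 0.031 and -0.46 in AtrxdE2 and -0.070 and 0.23 in AtrxdE2+TMPyP4. Gabra3 lies on the X chromosome, as Atrx does, between Gabre and Gabrq, which were not above background.

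Set against the X chromosome, Gabra3 was at the ends in the comparisons that hold its low AtrxdE2 channel. Of 435 measured X-linked genes it had the lowest ratio in AtrxdE2 over wild type, ahead of Gprasp1 at -0.71, and the highest difference between AtrxdE2+TMPyP4 and AtrxdE2, ahead of Nkrf at 0.86. Xlr3b held the opposite end both times, at 1.75 and -1.45. In AtrxdE2+TMPyP4 over wild type Gabra3 ranked 70 from the top of these X-linked genes. Glra2, the other measured X-linked member, had -0.050 in AtrxdE2 and -0.19 in the difference. As a group the X-linked genes had a median of 0.0085 in AtrxdE2 and 0.026 in the difference.

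**Figure D3:**
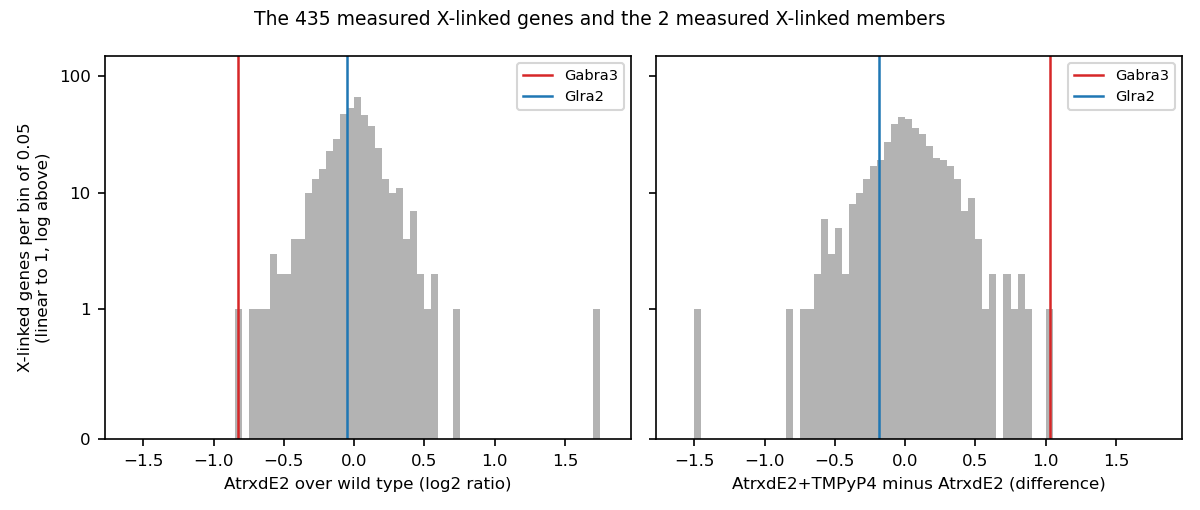
Histograms of the log2 ratio in AtrxdE2 over wild type (left) and of the difference AtrxdE2+TMPyP4 minus AtrxdE2 (right) for the 435 measured X-linked genes, in bins of 0.05 on a count axis that is logarithmic above 1. Vertical lines mark Gabra3, at -0.82 and 1.03, and Glra2, at -0.050 and -0.19.

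TMPyP4 binds G-quadruplexes, four-stranded structures that guanine-rich DNA can form, so the promoters of the members were searched for runs that could form one. The motif was 4 or more runs of GGG (or of CCC, which is the same motif on the other strand), each of 3 bases or longer, with 1 to 7 bases of any kind between them. The window was the 250 bases before each RefSeq start of GRCm38.p6. Windows were found for 24 of the 26 members, and 5 genes had a match: Gabbr1, Gabra4, Gabrb2, Gabre and Glrb. That is 20.8% of the members, against 18.5% of 27025 genes with a window. Of the measured members 22.2% had a match, against 27.0% of the measured genes. The windows of Gabra3, Gabra2 and Gabrb2, the 3 genes beyond 2 SD in AtrxdE2, and of Glrb, the highest member in AtrxdE2+TMPyP4 under the main setting, are shown 5′ to 3′ on the gene's strand with matches in capitals. Where a gene has several starts, the window is that of the outermost one.
Gabra3 (chrX:72656920-72657169, minus strand): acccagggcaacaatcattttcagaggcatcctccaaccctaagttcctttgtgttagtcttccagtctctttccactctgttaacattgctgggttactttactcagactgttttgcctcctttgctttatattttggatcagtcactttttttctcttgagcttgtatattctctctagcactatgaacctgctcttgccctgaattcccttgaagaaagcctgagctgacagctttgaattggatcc
Gabra2 (chr5:71095850-71096099, minus strand): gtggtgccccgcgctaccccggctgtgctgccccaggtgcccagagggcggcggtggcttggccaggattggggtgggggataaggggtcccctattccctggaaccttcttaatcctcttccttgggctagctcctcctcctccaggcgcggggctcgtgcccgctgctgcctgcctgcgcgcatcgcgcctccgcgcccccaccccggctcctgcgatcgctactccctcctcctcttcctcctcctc
Gabrb2 (chr11:42420190-42420439, plus strand): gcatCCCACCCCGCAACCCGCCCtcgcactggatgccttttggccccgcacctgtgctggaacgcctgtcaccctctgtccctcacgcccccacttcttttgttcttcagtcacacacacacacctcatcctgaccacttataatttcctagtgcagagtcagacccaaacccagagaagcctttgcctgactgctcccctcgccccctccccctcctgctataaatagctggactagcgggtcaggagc
Glrb (chr3:80913661-80913910, minus strand): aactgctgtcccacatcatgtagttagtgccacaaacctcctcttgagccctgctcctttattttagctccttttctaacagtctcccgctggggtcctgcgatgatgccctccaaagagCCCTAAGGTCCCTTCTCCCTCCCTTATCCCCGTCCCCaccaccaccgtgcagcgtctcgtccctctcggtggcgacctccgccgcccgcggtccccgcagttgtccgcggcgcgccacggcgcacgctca

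The window of Gabra3 held no match, no CG dinucleotide and 42.4% G and C. Gabra2, with 70.0% G and C and 18 CG dinucleotides, held no match either. Gabrb2 (58.8%, 8 CG) and Glrb (62.4%, 20 CG) each held a match as runs of C, which is the guanine-rich motif on the opposite strand. The 4 measured members with a match had a median difference of 0.28, from -0.32 for Gabbr1 to 0.70 for Gabrb2. The 14 without one had -0.023, from -0.31 to 1.03. Over all measured genes with a window the medians were 0.0016 for 2952 genes with a match and 0.018 for 7983 without. A match is a description of these letters, and no binding was measured.

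The GABA-B receptor genes differed from each other. Gabbr1, for the subunit that binds GABA, had log2 signals of 10.98 in wild type and 10.99 in AtrxdE2, then 11.21 in wild type and 10.89 in AtrxdE2+TMPyP4. The high channel was wild type on the second array, and the other 3 lay close together. Its ratio was 0.0059 in AtrxdE2 and -0.32 in AtrxdE2+TMPyP4 (SD 0.24), or 0.27 with median centring, where genes of like signal had 0.61. The difference of -0.32 (SD 0.29), the lowest of the members, was -0.075 when the Cy3 channels were compared directly and 0.0095 with median centring. Gabbr2, for the subunit that couples to G proteins, had log2 signals of 7.14, 6.93, 6.99 and 7.01 in the same order, with wild type on the first array as the high channel. Its ratios were -0.21 (SD 0.18) and 0.016 (SD 0.18; below 0 with the local background and in the authors' deposited table), and the difference was 0.23 (SD 0.23).

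Of the glycine receptor genes, 3 of 5 were measured. Glrb, for the beta subunit that binds gephyrin, had log2 signals of 10.30 in wild type and 10.31 in AtrxdE2, then 10.49 in wild type and 10.89 in AtrxdE2+TMPyP4. The treated pool was the high channel. Its ratio was 0.0096 in AtrxdE2 and 0.40 in AtrxdE2+TMPyP4 (SD 0.22; 0.46 in the authors' deposited table), rank 438 from the top, and the difference was 0.39 (SD 0.30). All other ways of processing gave the AtrxdE2+TMPyP4 ratio the same sign, from 0.37 to 1.0. Glra2, an X-linked alpha subunit gene, had -0.050 and -0.23 (SD 0.22 and 0.21), the second of which was 0.021 with median centring and the first 0.096. The dim Glra3, with signals above blank between 22.2 and 37.9, had -0.062 and -0.11 (SD 0.12 and 0.13). Glra1, the main alpha subunit of adult spinal cord, was above background in both wild-type channels and in AtrxdE2+TMPyP4, with signals above blank of at most 14.1, and had no bound above 1. Glra4 was above background in AtrxdE2+TMPyP4 alone, at least 1.05-fold higher than wild type.

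Gphn encodes gephyrin, the scaffold that holds glycine and many GABA-A receptors at the synapse. Its log2 signal was 8.98 in wild type and 9.09 in AtrxdE2, then 9.22 in wild type and 9.56 in AtrxdE2+TMPyP4, again with the treated pool as the high channel. The ratios were 0.11 (SD 0.22) and 0.34 (SD 0.23; rank 686 from the top), and the difference was 0.24 (SD 0.28), or -0.06 with the local background. Glrb and Gphn, whose products bind each other, were the highest members in AtrxdE2+TMPyP4 over wild type under the main setting. Gabrb2 was higher with plain subtraction (0.56), with an offset of 10 (0.40) and in the authors' deposited table (0.51). Gabra2 was highest with the local background (1.23), and Gabra4 and Gabrb1 (0.85 each) were level with Gphn (0.84) with median centring.

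Gabarap and its relatives Gabarapl1 and Gabarapl2 encode ubiquitin-like proteins of the Atg8 family, which act in autophagy and in carrying GABA-A receptors to the membrane. Gabarap had log2 signals of 11.09 in wild type and 10.97 in AtrxdE2, then 11.20 in wild type and 10.78 in AtrxdE2+TMPyP4. Both mutant channels lay below both wild-type channels. The ratio was -0.12 (SD 0.25) in AtrxdE2 or 0.14 with median centring, and -0.43 (SD 0.24) in AtrxdE2+TMPyP4, the lowest member there and 182 from the bottom of all genes, but 0.16 with median centring, where genes of like signal had a median of 0.61. The difference was -0.31 (SD 0.29), or -0.0098 with the local background and 0.024 with median centring. Gabarapl1 had -0.044 and -0.049, and Gabarapl2 0.041 and -0.15, all within 1 SD of genes of like signal. Median centring turned these signs, to 0.17 and 0.59 for Gabarapl1 and to 0.33 for Gabarapl2 in AtrxdE2+TMPyP4. With the local background Gabarapl1 was past 2-fold in AtrxdE2, at 1.2, and had 0.39 in AtrxdE2+TMPyP4 and a difference of -0.86. For Gabarapl2 both channels of the second array were the lower ones, by 0.39 in wild type (wt 9.72 and 9.33) and 0.59 in the mutant pools (9.76 and 9.17).

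**Figure D4:**
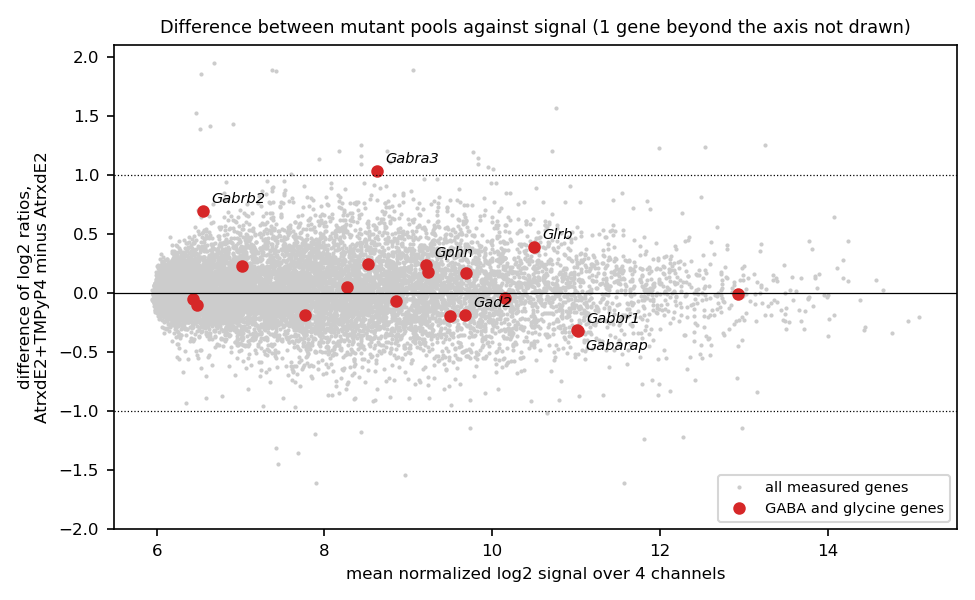
Difference of log2 ratios, AtrxdE2+TMPyP4 minus AtrxdE2, against mean normalized log2 signal for all 13633 measured genes (grey, of which 1 lies beyond the axis) and the 19 members (red). Gabra3, at 1.03, is above the dotted 2-fold line, Gabrb2, at 0.70, lies at the dim end, and the others lie between -0.32 and 0.39.

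The wild-type channels show how far the level of a probe moved between the arrays. Moves shared by both channels of an array largely cancel in the ratios, as for Gabra4 (0.56 in wild type, 0.73 in the mutant pools). The spread between the wild-type channels is therefore no measure of error for the difference of ratios. In 10 of the 19 members the wild-type channels of the arrays differed by at least as much as the treated pool differed from AtrxdE2 relative to wild type, and in 9 by less. Gabra3 and Gabrb2 were among the latter, with wild-type differences of -0.13 and -0.18. The same share over all measured genes is not given here. Over all measured genes the median absolute difference was 0.145 between the wild-type channels and 0.136 between both ratios. For the members these medians were 0.187 and 0.185.

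A wider list of 75 genes that make, carry, clear or respond to GABA, or are relatives of Gabarap in autophagy, had 63 measured. None was past 2-fold in any comparison. In AtrxdE2 25 were above 0 and 38 below, with a median of -0.071, where 49.3% of all measured genes were above 0. Beyond 2 SD were 2 of the 63 on the higher side and 4 on the lower, against 2.31% and 2.6% of all measured genes. In AtrxdE2+TMPyP4 38 were above and 25 below, with a median of 0.036 (52.8% of all genes above 0), and 1 and 2 were beyond 2 SD, against 2.62% and 1.6%. In the difference the median was 0.074, with 38 above 0 (52.7% of all genes) and 4 and 3 beyond 2 SD, against 2.74% and 1.83%.

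Slc6a11, the astrocytic GABA transporter GAT-3, was the lowest in AtrxdE2 at -0.63 (SD 0.23) and had -0.088 in AtrxdE2+TMPyP4. Glul, the astrocytic glutamine synthetase, had -0.15 in AtrxdE2 and -0.93 in AtrxdE2+TMPyP4 (SD 0.23). The 11 astrocyte markers, to which both belong, had medians of -0.084 and 0.11. In AtrxdE2+TMPyP4 Glul thus lay on the other side of 0 from the list median, with 7 of the markers above 0 and 4 below. Pdxk, which makes the pyridoxal phosphate cofactor of glutamate decarboxylase, was the highest in AtrxdE2 at 0.54 (SD 0.22) and had -0.092 in AtrxdE2+TMPyP4. Slc38a5, a glutamine transporter, had 0.34 and 0.29.

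Among trafficking genes, Hap1, whose product carries GABA-A receptors with kinesin motors, was the lowest in AtrxdE2+TMPyP4 at -0.97 (SD 0.23), against -0.15 in AtrxdE2. Nsf, a trafficking ATPase, had -0.43 (SD 0.28) there. Plcl2 had 0.35. Dynll2, a dynein light chain that binds gephyrin, had -0.62 in AtrxdE2 (SD 0.21), 0.23 in AtrxdE2+TMPyP4 and the highest difference of the list, 0.84 (SD 0.30). Its order of channels was that of Gabra3. The G-protein subunit gene Gnb5 had -0.57 and 0.20, with a difference of 0.78 (SD 0.29), and Gnai1 -0.34 and 0.34, with 0.68 (SD 0.30) between them. Gnao1 went the other way, with 0.40 and -0.16. Rgs7, the partner of Gnb5 that limits GABA-B signalling, was the highest in AtrxdE2+TMPyP4 at 0.49 (SD 0.23).

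**Figure D5:**
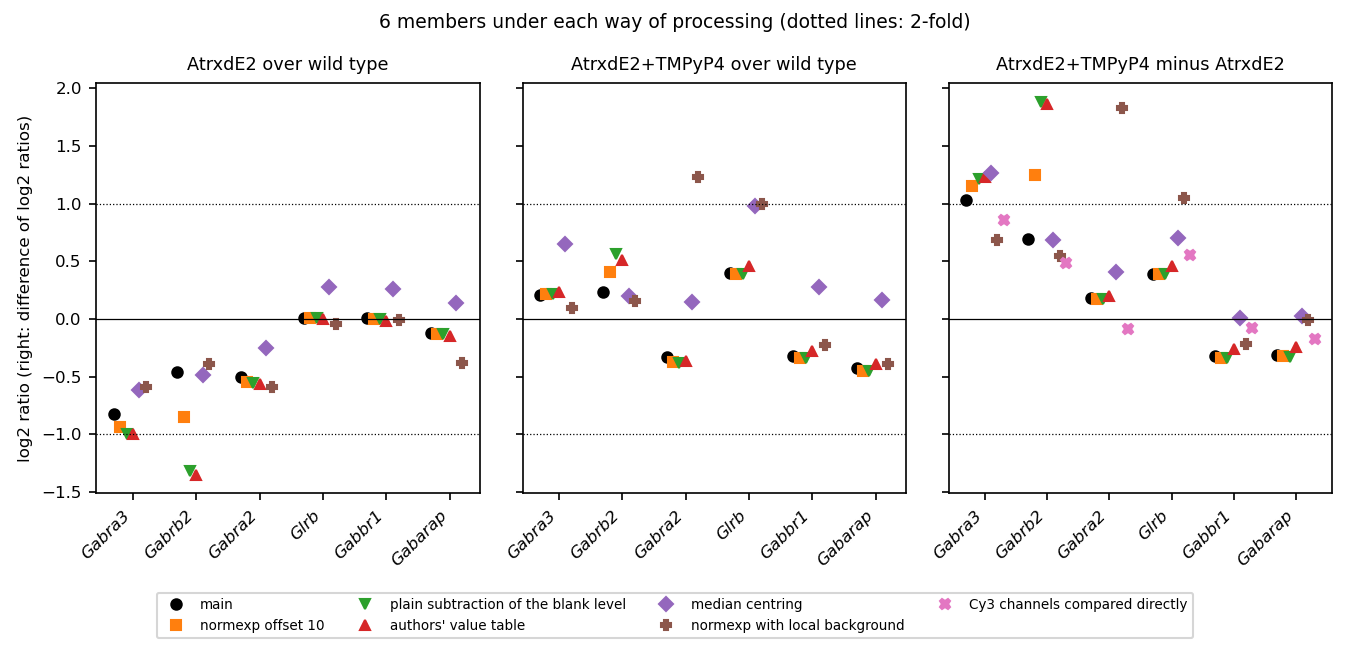
Log2 ratios of 6 members under the main setting (black) and the other ways of processing, for both mutant pools over wild type and the difference of both (right). Gabra3 and Gabrb2 keep their sign in each panel while their size changes, up to 1.27 and 1.88 in the right panel, and Gabra2, Gabbr1 and Gabarap change sign in the middle panel with median centring.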

How the data were processed

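Both arrays are two-colour oligonucleotide arrays of 27456 spots. For every spot and its surroundings, the deposited files give a median intensity in Cy5 and Cy3, read at 3 gains. A second table by the authors gives log2 ratios, described as normalized by the labels. It matched the log2 ratio of blank-subtracted signals minus 0.65 and 1.17, within 0.01 for 99.99% of values, which settles scale and direction. Its column medians are 0. The scanning software is not given in the sources used here. Gene names are those of the platform annotation.

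Background was corrected with normexp (limma 3.58.1, R 4.3.3; offset 50), taking the mean of 2736 blank spots, trimmed by a share of 0.05 at each end, as background, followed by loess with control spots at weight 0 and Aquantile scaling for the channel levels. A probe was measured when no gain marked it bad and it exceeded the blank mean by 2 SD in all 4 channels. The offset compresses ratios of dim probes. Changes of 2 log2 units, up or down, were planted in simulated data. The same steps returned their medians over probes with the planted sign and a smaller size, more so for dim probes. The ratios of the members were smaller than the planted changes, and recovery of the sign at single probes was not tested.

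Bounds for probes below background divide the brighter channel by the dimmer one. The dimmer channel is set at the higher of its own value and the lowest signal counted there as above background. For Gabrp its own value was the higher, so the figure given is a point ratio. No test was run, as each group is 1 array. Every member is accounted for. Channel levels are given for Gad2, Gphn and the 5 members farthest from 0 in each comparison, and for others after their values were seen, as was the wider call rule of 2 SD. Of the wider list, the 3 highest and 3 lowest in each comparison are named. Slc32a1, some markers and the X-linked genes Gprasp1, Nkrf and Xlr3b, outside this rule, were chosen after their values were seen. Alternatives were plain subtraction, local background, an offset of 10, median centring, the authors' table, other filters and a direct Cy3 comparison. The members and lists were chosen with earlier results of these data known.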

Additional observations from a re-analysis of the deposited data

How the results depend on the processing

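When loess was replaced by median centring, the median log2 ratio of the members was 0.17 in AtrxdE2 over wild type, 0.39 in AtrxdE2+TMPyP4 over wild type and 0.25 in the difference. The median of all measured genes moved with it, to 0.066, 0.18 and 0.061, and further for bright probes. No other setting moved these medians by 0.1 log2 units or more. In the main setting the count of members past 2-fold in AtrxdE2 over wild type was 0. It was 1 with plain subtraction (Gabrb2, lower) and 1 with local background (Gabarapl1, higher). In the authors' table it was 2 (Gabra3 and Gabrb2, both lower). In AtrxdE2+TMPyP4 over wild type it was 2 with local background (Gabra2 and Glrb, both higher), against 0. In the difference it was 2 with local background (again Gabra2 and Glrb) and 0 with the Cy3 channels compared directly, against 1. It was also 2 (Gabra3 and Gabrb2, both higher) with plain subtraction, an offset of 10 or the authors' table. The share of all measured genes past 2-fold under these settings is not given here. Of the 19 members, 8 changed sign in AtrxdE2+TMPyP4 over wild type with median centring and 6 with local background. Among measured members, dim probes (Gabrb2, Gabra6, Glra3 and Gabbr2) have the least signal over background. No paired analysis was possible because each group has 1 array. No replicate could be left out for the same reason.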
